A study of Homo sapiens with 2 samples.

Results

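The olfactomedin family was followed here across melanotransferrin hyperexpression: 8 genes, OLFM1, OLFM2, OLFM3, OLFM4, OLFML1, OLFML2A, OLFML2B and OLFML3, were taken with every probe set annotated to 1 of them alone. This gave 11 probe sets of 41097 single-gene probe sets on the array, and 8 genes of 19775. The RNA came from SK-N-MC, a human line that the labels name a neuroepithelioma and that is now placed in the Ewing tumour family. The 2 samples were a stably transfected line carrying the human melanotransferrin cDNA in the pCMV-Script vector (hyperexpression clone 4, called the clone below) and a line with pCMV-Script without the insert (vector control 1). Both lines thus carry the vector, each was 1 line read on 1 Affymetrix U133 Plus 2.0 array, and the insert is driven by the vector's viral promoter rather than by the gene's own.

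With 1 array per group there is no replicate error, no test between the groups and no p-value in what follows. The family was singled out with these same 2 arrays in view, so its signals are a description of them. Values are linear probe set signals scaled by the authors to the same trimmed mean on each array, and a difference is given as the ratio, or log2 ratio, of the clone over the vector control. A signal of 208 served as the floor under which a probe set was counted as not measured. The only yardstick for error is the disagreement between different probe sets of 1 gene on the same 2 arrays: over 5387 genes their log2 ratios had a pooled SD of 0.35, and of 0.40 among genes with a probe set averaging under 500. That SD leaves out differences between cultures, clones, labelling reactions and arrays. In RNA from whole cultures, more cells making a transcript and more transcript per cell cannot be told apart.

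Olfactomedin-domain proteins are mostly secreted glycoproteins that share a beta-propeller domain at the carboxyl end and bind other proteins at the cell surface or in the extracellular matrix. The noelins OLFM1, OLFM2 and OLFM3 are best known from the nervous system, where they form multimers and associate with receptors of neurons. OLFM4 marks intestinal crypt cells and a subset of neutrophils, and the olfactomedin-like proteins are matrix or secreted proteins studied mainly in blood vessels and eye. Melanotransferrin, the transfected gene, is a membrane-anchored relative of the iron carrier transferrin.

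The transfected gene was read first as a check of the labels. MELTF had 4 probe sets; the brightest, 220043_s_at, read 4449.4 in the clone and 18.4 in the vector control, which is at least 21.4-fold higher in the clone against the floor. Of the others, 1 read 209.3 in the clone and 245.8 in the vector control and 2 lay below the floor on both arrays. Melanotransferrin signal was thus high in the library labelled as hyperexpressing, on 1 probe set of 4.

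Among the noelins, OLFM1 and OLFM3 read about 2-fold higher in the clone and OLFM2 read nearly the same on both arrays. OLFM1, also called noelin 1 or pancortin, is a secreted protein of developing and adult brain that binds the Nogo receptor. On its brightest probe set, 213131_at, the signal was 18236.7 in the clone and 9134.6 in the vector control, a ratio of 1.996. On 205591_at it was 9830 in the clone and 4818.1 in the vector control, a ratio of 2.04. These 2 bright readings differed by 0.031 on the log2 scale. The third probe set, 210924_at, read 236.4 in the clone and 215 in the vector control, both just above the floor, and its log2 ratio was 0.14. OLFM1 therefore was close to 2-fold higher on both bright probe sets and nearly level on the dim one, a spread of 0.89 on the log2 scale between the highest and the lowest. Of 1444 genes with 3 probe sets measured on both arrays, 17.9% had a spread at least as wide. The gene makes several isoforms from alternative starts and ends, and which isoform each probe set reads was not tested here.

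OLFM3, noelin 3 or optimedin, is a secreted protein first described in eye and brain. On the probe set 1554524_a_at its signal was 1054.3 in the clone and 469.9 in the vector control, a ratio of 2.24 and the highest of the family above the floor. On 1554526_at it was 399.5 in the clone and 228.4 in the vector control, a ratio of 1.75 from a control signal close to the floor. Both probe sets were higher in the clone and lay 0.36 apart on the log2 scale, a gap matched or exceeded by 40.1% of the 2969 genes with 2 such probe sets. The suffix of the brighter probe set marks it as shared between transcripts of 1 gene.

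OLFM2, noelin 2, is a secreted glycoprotein of brain and smooth muscle. Its only probe set, 223601_at, read 1085.8 in the clone and 1190.4 in the vector control. The log2 ratio of -0.13 is smaller than the spread between probe sets of a gene, so no difference can be read from it.

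OLFM4 and OLFML1 were not measured on either array. OLFM4, the crypt and neutrophil glycoprotein, read 85.9 in the clone and 8.3 in the vector control on its only probe set. Both signals lie under the floor, so the gap between them has no ratio here. OLFML1, a secreted protein of the olfactomedin-like branch, read 19.4 in the clone and 10.2 in the vector control, also under the floor. Of 5 markers of intestinal crypt or myeloid cells, the cell types known for OLFM4, 4 were below the floor on both arrays and LGR5, a crypt stem cell receptor, read 227.3 in the clone and 349.5 in the vector control.

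In the olfactomedin-like branch, OLFML2A read higher in the clone, OLFML3 read alike on both arrays and OLFML2B lay near the floor. OLFML2A and OLFML2B are the photomedins, secreted proteins shown in mouse to bind chondroitin sulfate and heparin. OLFML2A had 1 probe set, with a signal of 1707.5 in the clone and 886.5 in the vector control and a ratio of 1.93. OLFML2B, its close paralogue, read 253.3 in the clone and 253 in the vector control, a log2 ratio of 0.0017 at a dim signal 45.0 above the floor. OLFML2B was no longer measured with the floor 2 times as high, and lay too near the floor for a level reading to show no change. The pair is therefore not contrasted, and each rests on a single probe set.

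OLFML3 is a secreted protein that acts on blood vessel growth and, in Xenopus, as a scaffold for an enzyme that degrades a BMP antagonist. It read 23411.9 in the clone and 22166.7 in the vector control, far above the floor on both arrays. Its log2 ratio was 0.079, smaller than the pooled SD of 0.21 for genes whose probe sets all had a mean signal over 2000.

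**Figure D1:**
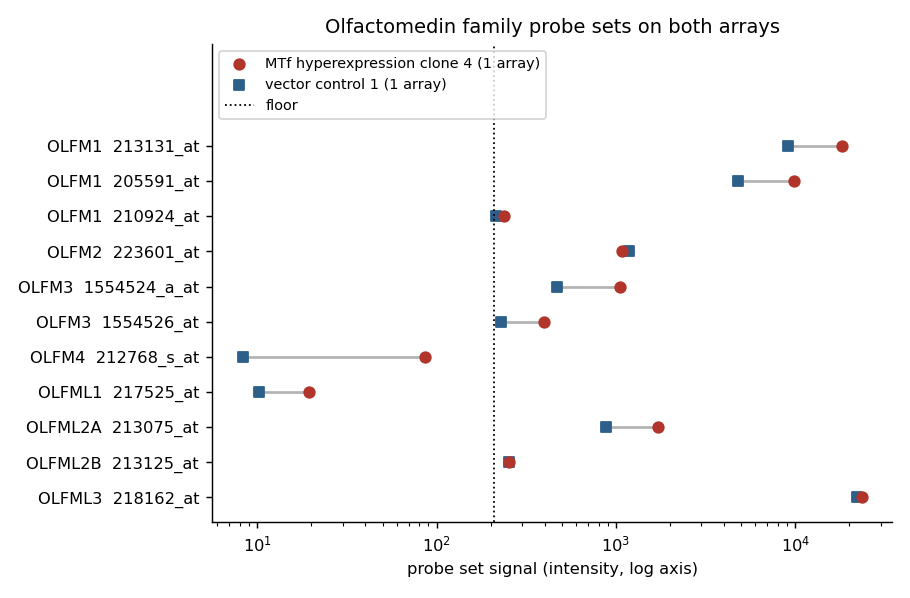
Signal of each of the 11 probe sets (log axis, linear intensity units) in the clone (circles) and the vector control (squares), 1 array each; the dotted line is the floor of 208. The circles of the 2 bright OLFM1 probe sets, of both OLFM3 probe sets and of OLFML2A lie clearly to the right of their squares, OLFM2, OLFML2B and OLFML3 nearly coincide, and OLFM4 and OLFML1 lie left of the floor.

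Counted over genes, each by its brightest probe set, 6 of the 8 members were measured, all 6 above the floor on both arrays. Of these, 1 (OLFM3) was at least 2-fold higher in the clone, beside 1.21% of 12663 measured genes, and 0 were at least 2-fold lower, beside 1.9% of them. OLFM1 at 1.996 and OLFML2A at 1.93 lay just under 2-fold. The call for OLFM3 rested on its brighter probe set: its log2 ratio was 0.99 as the median of both probe sets and 0.81 without probe sets of shared sequence, under 2-fold each time. At 1.5-fold the count was 3 of 6, beside 5.38% of all measured genes. The median log2 ratio was 0.51 over the 6 members and -0.022 over all measured genes. The members fall in 2 sets on these arrays, 3 near 2-fold higher and 3 near no difference, of which OLFML2B lay near the floor. The median lies between the sets and describes neither. The family was chosen on these ratios, and nothing is read from the counts.

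Among 10795 genes above the floor on both arrays, ordered from the highest log2 ratio down, OLFM3 stood 62nd, OLFM1 121st and OLFML2A 146th. OLFML3 stood 4348th, OLFML2B 5503rd and OLFM2 7411th, all well inside the bulk of genes. By the smallest of the log2 ratios of its measured probe sets, OLFM3 stood 9th of 5387 genes with 2 or more. Its smaller ratio came from 1554526_at, with a vector control signal of 228.4 close to the floor. By the same measure OLFM1, with its dim probe set 210924_at counted, stood 596th. Over probe sets with a mean signal over 2000 alone, which leaves that probe set out, it stood 4th of 1661 genes. The smallest ratio tends to be higher where a gene has few probe sets. The family was chosen on these same ratios, so the ranks only describe them and nothing is read from them. The genes whose pair of signals lay nearest to that of OLFM3 (Euclidean distance of log2 signals over only 2 arrays, 10794 genes compared) were IFI44L, KCNMA1 and PABPC4L. Their distances were 0.028, 0.075 and 0.11 in log2 units.

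**Figure D2:**
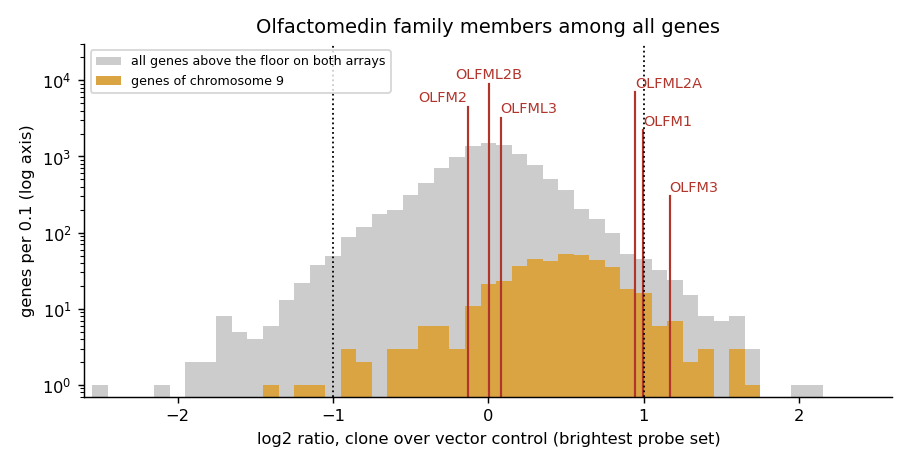
Log2 ratio of the clone over the vector control for all genes above the floor on both arrays (grey), for those of chromosome 9 (gold) and for the 6 measured members (red lines, whose heights carry no value); the vertical axis counts genes per bin of 0.1 on a log scale and dotted lines mark 2-fold. OLFM3, OLFM1 and OLFML2A lie in the upper tail at 1.17, 1.00 and 0.95, and OLFML3, OLFML2B and OLFM2 lie in the centre of the grey distribution.

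Of the 3 members near 2-fold, OLFM1 and OLFML2A lie on chromosome 9 and OLFM3 on chromosome 1. Genes of chromosome 9 read higher in the clone as a whole: the 445 above the floor on both arrays had a median log2 ratio of 0.48, and 90.8% of them stood above the median of all genes, whereas the 10350 genes elsewhere had a median of -0.0038. At 1.5-fold, 34.9% of measured chromosome 9 genes were higher, against 5.38% of all measured genes, and at 2-fold 5.95% were, against 1.21% of all. Without the members the median of the other 443 genes was also 0.48. OLFM1 exceeded the chromosome's median by 0.52 and OLFML2A by 0.47 on the log2 scale, which placed them 29th and 39th of the 445. The part of the chromosome-wide difference in the ratios of OLFM1 and OLFML2A was not tested.

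The neighbouring genes showed the same contrast. For each measured member the 5 nearest genes above the floor on both arrays were taken on either side in the RefSeq gene order, a choice made after the chromosome 9 values were known. All 10 neighbours of OLFM1 stood above the median of all genes, with log2 ratios of 0.11 to 1.32 and a median of 0.67. The next gene on the lower side, COL5A1, a chain of type V collagen, had the highest of these ratios, and 9 of the 10 lay below OLFM1 itself. Of all chromosome 9 genes above the floor on both arrays, 93.5% lay below OLFM1 too. All 10 neighbours of OLFML2A also stood above that median, from 0.14 to 1.15 with a median of 0.59. Here the host transcript of a microRNA, MIR181A2HG, directly next to OLFML2A, was the 1 neighbour with a higher ratio than the member. Of the same chromosome 9 genes, 91.2% lay below OLFML2A.

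OLFM3 differed in this respect. Its 10 neighbours on chromosome 1 had log2 ratios from -0.64 to 0.29 with a median of -0.15, and all 10 lay below OLFM3. Of all 10795 genes above the floor on both arrays, 99.4% lay below OLFM3 too, so nothing is read from that count. The cell adhesion molecule VCAM1, 5 places away, had a log2 ratio of -0.47, and NTNG1, a netrin-related axon guidance protein 3 places away on the other side, of 0.29. Neighbour medians were 0.18 for OLFML3, 0.012 for OLFML2B and 0.067 for OLFM2, and each of these members lay among its neighbours rather than above them.

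**Figure D3:**
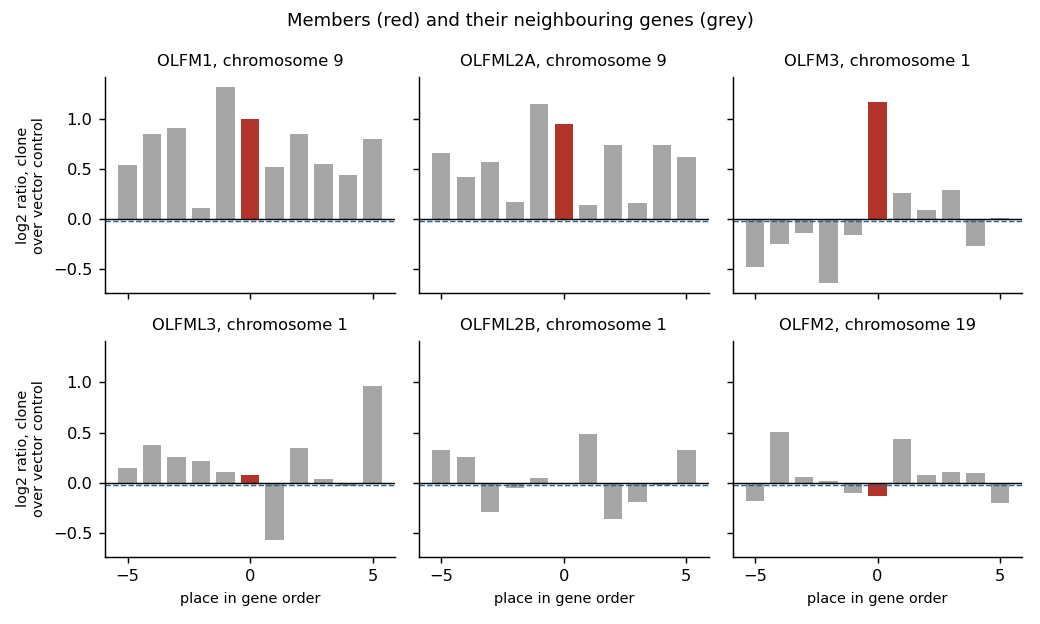
Log2 ratio of the clone over the vector control for each measured member (red, place 0) and up to 5 measured genes on each side in gene order (grey); the dashed line is the median of all measured genes. The grey bars around OLFM1 and OLFML2A are all above 0, while those around OLFM3 lie on both sides of 0 and well below its red bar.

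The sequences before the transcription starts of the 3 higher members, and of OLFML3 for comparison, are shown to set side by side the motif letters they hold. Windows of 250 bases ending just before a start were read from the RefSeq promoter table (GRCh38.p14), which held 12 windows for 7 of the members. Capitals mark GC boxes (GGGCGG, or CCGCCC on the other strand, bound by SP1-type factors) and E boxes (CANNTG, bound by basic helix-loop-helix factors), both strands searched. The start farthest upstream is given where a gene has several. The OLFM1 window is chr9:135075255-135075504 (plus strand), that of OLFML2A chr9:124776883-124777132 (plus strand), that of OLFM3 chr1:101846989-101847238 (minus strand) and that of OLFML3, the bright member with no difference, chr1:113979224-113979473 (plus strand).
OLFM1: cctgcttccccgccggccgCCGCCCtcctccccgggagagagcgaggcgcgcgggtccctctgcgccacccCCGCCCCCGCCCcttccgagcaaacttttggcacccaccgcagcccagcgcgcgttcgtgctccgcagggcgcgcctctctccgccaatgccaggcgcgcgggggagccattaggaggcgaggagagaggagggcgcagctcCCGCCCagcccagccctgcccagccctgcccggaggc
OLFML2A: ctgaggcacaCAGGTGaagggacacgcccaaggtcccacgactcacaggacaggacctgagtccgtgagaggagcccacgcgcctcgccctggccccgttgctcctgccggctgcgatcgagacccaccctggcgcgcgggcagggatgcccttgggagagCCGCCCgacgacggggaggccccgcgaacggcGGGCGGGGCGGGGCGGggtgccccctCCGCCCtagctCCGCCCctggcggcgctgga
OLFM3: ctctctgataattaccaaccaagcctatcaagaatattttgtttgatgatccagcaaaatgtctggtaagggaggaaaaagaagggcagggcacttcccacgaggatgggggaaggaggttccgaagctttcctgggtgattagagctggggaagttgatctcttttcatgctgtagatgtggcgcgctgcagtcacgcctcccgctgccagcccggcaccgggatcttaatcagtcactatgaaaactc
OLFML3: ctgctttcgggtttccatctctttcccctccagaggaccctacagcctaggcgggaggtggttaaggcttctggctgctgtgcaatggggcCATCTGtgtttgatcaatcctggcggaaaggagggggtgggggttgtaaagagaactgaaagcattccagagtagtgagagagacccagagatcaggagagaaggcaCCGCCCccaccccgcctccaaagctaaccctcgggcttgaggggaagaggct

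The 3 higher members do not share either motif in these windows. The OLFM1 window held 4 GC boxes and no E box, and the OLFML2A window 6 GC boxes, of which 3 overlap by a base each, and 1 E box. The OLFM3 window held neither. The OLFML3 window held 1 of each, and a GC box was in 42.6% and an E box in 61.8% of all 35116 windows. Windows differed in base composition too: 76.8% of bases were G or C before OLFM1, 75.2% before OLFML2A, 50.4% before OLFM3 and 57.6% before OLFML3, where the median of all windows was 58%. The TATA letters TATAAA, found in 10.7% of all windows, were in none of these 4, nor was a doubled GGAA (GGAAGGAA, in 3.06% of all windows), a form of the repeats bound by the EWSR1-FLI1 fusion of Ewing tumours. Windows before the other starts of OLFM1 held 4 GC boxes and no E box in 1 case, and no GC box and 1 E box in the other. The window before the other start of OLFML2A held no GC box and 1 E box, with 50.8% of bases G or C. The motif letters thus depend on the start chosen. A match or its lack in these windows says nothing of binding in these cells.

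Other genes with an olfactomedin domain were dim or below the floor, apart from ADGRL1, which read much the same on both arrays. The list held MYOC, GLDN and the latrophilins ADGRL1, ADGRL2 and ADGRL3. Of its 5 genes, 3 were measured and 0 passed 2-fold in either direction, beside 1.21% higher and 1.9% lower among all measured genes. ADGRL1 is a latrophilin whose olfactomedin domain faces outside the cell and binds FLRT proteins. Its log2 ratios ran from -0.082 to 0.17 over 3 probe sets, the brightest reading 3432.8 in the clone and 3053.8 in the vector control. MYOC, myocilin of the eye's drainage tissue, read 279.1 in the clone and 217.4 in the vector control, both near the floor. GLDN, gliomedin of the node of Ranvier, read 289.1 in the clone and 312.4 in the vector control on its 1 measured probe set. The other latrophilins, ADGRL2 and ADGRL3, lay below the floor on both arrays on every probe set. Over the 3 measured genes the median log2 ratio was 0.17. With the floor 2 times as high, 1 of the 5 genes was measured. MYOC and GLDN lay too near the floor for a small difference to be read.

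Reported binding partners of olfactomedin-domain proteins formed the other list. Of 27 partners, 16 were measured, 0 were at least 2-fold higher and 1 at least 2-fold lower. Of all measured genes, 1.21% were at least 2-fold higher and 1.9% lower. The partners' median log2 ratio was -0.0096, beside -0.022 for all measured genes. The lower 1 was NFASC, neurofascin, the axonal partner of gliomedin. Its brightest probe set read 139.4 in the clone and 524.9 in the vector control, at least 2.52-fold lower in the clone, and its other 3 probe sets were below the floor on both arrays. Background probe sets were also dimmer on the clone array, with a median signal of 44 against 67.4, and their part in this bound was not tested. With the floor 2 times as high, 0 partners were at least 2-fold lower, beside 47 of 10105 measured genes. Centred on the hybridisation spikes 2 partners were at least 2-fold higher and 0 lower, beside 7.57% of all measured genes higher and 32 of 12663 lower. Without a floor 3 partners were higher and 7 lower, beside 7.8% of all genes higher and 3434 of 19775 lower.

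The partner counts rest on the brightest probe set of each gene, and FLRT2, a membrane ligand of latrophilins named here after its values were seen, read differently on its others. Its brightest probe set read 17971.9 in the clone and 18013 in the vector control. The next read 6879.2 in the clone and 4268.8 in the vector control, and the dimmest 2228.1 in the clone and 964.4 in the vector control, 2.31-fold higher. This was the 1 partner probe set of 20 above the floor on both arrays that passed 2-fold, and the log2 ratios of FLRT2 thus ran from -0.0033 to 1.21.

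Receptors linked to OLFM1 are named here after their values were seen. RTN4R, the Nogo receptor, read 611.1 in the clone and 662.8 in the vector control. NGFR, its p75 co-receptor, read 1234.4 in the clone and 1468.3 in the vector control, and LINGO1, the third part of that complex, 4983.1 in the clone and 2808.1 in the vector control. Of these, LINGO1 stood apart, with a log2 ratio of 0.83 on 1 probe set, while RTN4R and NGFR had log2 ratios of -0.12 and -0.25. The AMPA receptor subunits GRIA1, GRIA2, GRIA3 and GRIA4, channels with which noelins associate in brain, were below the floor on both arrays on every probe set. So were the AMPA auxiliary subunits CNIH2 and CACNG2.

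The cell type of both samples was checked with marker lists. All 8 Ewing tumour markers with a probe set were above the floor on both arrays, with CD99 at 32238.8 in the clone and 31464.8 in the vector control and NKX2-2 at 12438.4 in the clone and 11549.7 in the vector control. Their summed signal was 148496 in the clone and 128848 in the vector control, all 8 stood above the median of all genes, and none passed 2-fold. The largest ratio among them was 1.69, for LIPI. Of 4 sympathetic neuron markers 3 were below the floor on both arrays, as were 2 of 4 glial and 3 of 5 epithelial markers, whereas 5 of 6 fibroblast markers were measured. For sympathetic neuron markers the summed signal was 154.5 in the clone and 392.4 in the vector control, and for glial markers 854.2 in the clone and 1066.4 in the vector control. For epithelial markers it was 10746 in the clone and 10566.3 in the vector control, nearly all of it from the keratin KRT18 at 10363 in the clone and 9759.9 in the vector control. The keratin KRT8 was 2.08-fold lower in the clone, at 245.6 against 509.9 in the vector control, and was the 1 epithelial marker past 2-fold. Its clone signal lay near the floor, and 1.9% of all measured genes were at least 2-fold lower. For fibroblast markers the sum was 34783 in the clone and 36792.5 in the vector control, and for crypt and myeloid markers 280 in the clone and 569.1 in the vector control. Within the fibroblast list COL1A1 was 1.52-fold lower in the clone and COL1A2 1.57-fold higher, so opposite differences offset each other in that sum. The sympathetic neuron, glial and crypt and myeloid sums take in signals under the floor, so no loss is read from them. Background probe sets were dimmer on the clone array too, with a median signal of 44 against 67.4. The only glial marker above the floor on both arrays, S100B, read 756.4 in the clone and 630.2 in the vector control. ERBB3, above it only in the vector control, read 51.4 in the clone and 279.5 there. The Ewing list had the higher sum in the clone and a median log2 ratio of 0.27, and its part in the members' ratios was not tested.

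The scale of every ratio above depends on the array scaling. The 18 probe sets of hybridisation spikes had a median ratio of 0.706, clone over vector control, and the 24 of poly-A spikes 1.53. Centred on the first, the log2 ratios were 1.67 for OLFM3, 1.499 for OLFM1 and 1.45 for OLFML2A; centred on the other, they were 0.56, 0.39 and 0.34. The median of all genes shifted by 0.50 under the first and by -0.61 under the other. A shift of the whole array leaves each gene's distance from that median as it was, so the 3 genes stayed above it, while OLFM2 changed sign under the first and OLFML3 and OLFML2B under the other. The 3' to 5' signal ratio of ACTB, a sign of RNA integrity, was 1.44 on the clone array and 1.21 on the vector control array. That of GAPDH was 0.951 on the clone array and 0.92 on the vector control array. The part of RNA integrity in the ratios was not tested.

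**Figure D4:**
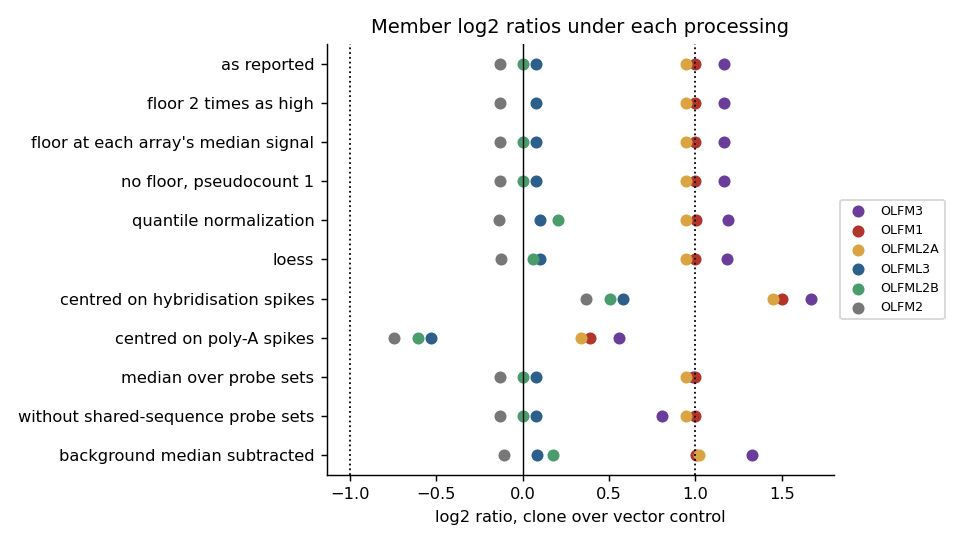
Log2 ratio of the clone over the vector control for the 6 measured members as reported and under 10 other ways of processing the 2 arrays; dotted lines mark 2-fold. OLFM3, OLFM1 and OLFML2A lie to the right of the other members in every row, while their place relative to the 2-fold line shifts with the scaling and, for OLFM3, with the probe sets used. Centring on spikes shifts all members alike, and the changes of floor leave their ratios nearly as they were. Those rows therefore could not change the order.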

How the data were processed

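Total RNA from 2 stably transfected SK-N-MC lines was measured, 1 array per group, and the labels gave the groups. The authors deposited linear intensity values for each probe set, made with GCOS 1.3 per the submitters' processing notes; how probes were summarised is not given in the sources used. As deposited, both arrays had the same mean after the lowest and highest 2% of 54675 probe sets were dropped, 1000.12, so a change common to most transcripts cannot be seen.

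Gene names came from the 2016 platform annotation, where 41097 probe sets had 1 symbol, 1801 several and 11777 no symbol here; 41043 matched the RefSeq table of GRCh38.p14 by gene ID. The brightest probe set by mean signal stood for each gene. As background served 191 probe sets of the OR, TAS2R and KRTAP families (smell, bitter taste and hair proteins), and the 90th percentile of their signals on the 2 arrays together was the floor. A signal below it on 1 array was set to the floor, so that ratio is a bound.

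The members, lists and alternatives were chosen with earlier results of these data known. The genes named were all members, the transfected gene, the other measured olfactomedin-domain genes, partners at least 2-fold apart and the 3 genes nearest in signal to OLFM3; others are named after their values were seen. The alternatives changed the floor, scaling, normalization, background and probe sets. Software was statsmodels 0.14.6, scipy 1.17.1, pandas 2.3.3, numpy 2.4.6, matplotlib 3.10.9 and Python 3.11.15. The ratio, floor, quantile and loess steps were run on simulated data. The changes made there, in bright probe sets, were larger or smaller than 2-fold and none was near it. For the quantile step only equal means of the arrays were checked, and for loess only that every probe set received a value. Whether these steps keep a made change was not checked. The other steps were not simulated. The number of arrays limits the precision.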

Additional observations from a re-analysis of the deposited data

How the results depend on the processing

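No paired analysis was possible because each group held 1 array, and no array could be left out. The count of members at least 2-fold higher in the clone, 1 as reported, was 2 without a floor (OLFM4 joined, from signals below the floor) and 2 after quantile normalization (OLFM1 joined). It was 3 centred on the hybridisation spikes, 3 with the background median subtracted and 3 at 1.5-fold, each time OLFM1, OLFM3 and OLFML2A. It was 0 centred on the poly-A spikes, 0 as the median over each gene's probe sets and 0 without probe sets of shared sequence, where OLFM3 had a log2 ratio of 0.81. The share of all measured genes at least 2-fold higher moved too: 1.21% as reported, it was 7.8% without a floor, 1.39% after quantile normalization, 7.57% on the hybridisation spikes, 2.27% with background subtracted, 0.103% on the poly-A spikes, 0.819% as the median over probe sets and 1.34% without shared sequences. The number of members at least 2-fold lower was 0 in all 12 alternatives run. The members' median log2 ratio relative to all genes, 0.53 as reported, was 0.94 with the floor 2 times as high and 0.98 without a floor; without the chromosome 9 members, an alternative chosen after seeing the data, it was 0.062. OLFML2B at a signal of 253.3 in the clone and 253 in the vector control and the OLFM1 probe set 210924_at lay too near the floor for a small difference to be read.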
